A study of Homo sapiens with 18 samples.

Results

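The 22Rv1 prostate cancer line carrying a Dox-responsive galectin-4 construct was compared on 3 arrays labelled Dox and 3 arrays without Dox, 6 of the 18 arrays in the series. The 6 arrays were taken by their titles, and probes with 1 gene symbol that were above background (detection p-value under 0.05) on 3 or more of the 18 arrays were kept, which left 13680 genes. Both groups held the construct, named 22Rv1-tetO-Gal4, in which the tetO promoter places galectin-4 under the control of doxycycline (Dox), a tetracycline antibiotic. The arrays without Dox carried the label control cells and those with Dox the label expressing galectin-4. The sources used here do not give the dose, the time of exposure or whether the cells were 1 clone or a pool. The other arrays came from LNCaP cells with the same construct, without and with Dox (3 and 3), and from 22Rv1-M4 cells, with scramble as control (3) or with galectin-4 knocked down (3). No group received Dox without the construct, so an effect of the antibiotic and an effect of the construct cannot be told apart. Nothing in the labels tells separate cultures from repeated arrays of 1 culture, so the p-values cover the spread between arrays, which may be technical alone.

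Galectins are lectins that bind sugar chains containing galactose, on the cell surface and in secretions. Galectin-4, the product of LGALS4, joins 2 sugar-binding domains in 1 chain and is made mainly by epithelium of the digestive tract. 22Rv1 is an established line derived from a human prostate carcinoma xenograft that grew back after castration, and it is used as a model of prostate cancer that grows without testicular androgen. In a Tet-on system, a transactivator protein binds tetO sites when doxycycline is present and starts transcription of the gene placed behind them.

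LGALS4, read by 1 probe, was not called between the arrays labelled Dox and those without. Its deposited intensities were 167, 160.9 and 153.9 on the arrays without Dox and 155.6, 139.8 and 157.7 on the arrays labelled Dox. As background-corrected, quantile-normalized log2 intensities, called levels from here on, these became 5.91, 5.96 and 5.84 without Dox and 5.84, 5.68 and 6.00 on the arrays labelled Dox. The groups overlapped, and the change was -0.06 on the log2 scale (SE 0.21, adjusted p = 0.874 by limma). The same probe read 4.53, 4.64 and 4.57 in LNCaP without Dox, where it was above background on 0 of 3 arrays, and 5.73, 6.79 and 6.96 with Dox. It read 12.41, 12.46 and 12.46 in the 22Rv1-M4 scramble cells. No rise of LGALS4 was thus seen on the 22Rv1 arrays labelled as expressing it, and every direction given below rests on the label Dox rather than on a measured rise of galectin-4. A probe reads 1 stretch of a transcript, and whether the construct's transcript holds that stretch was not tested.

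**Figure D1:**
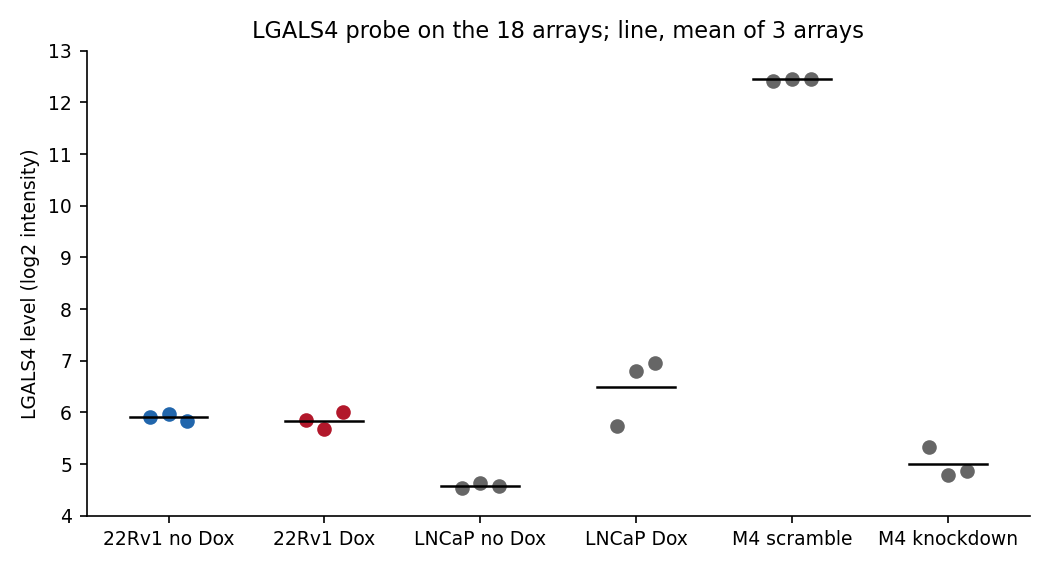
LGALS4 levels (log2 intensity, vertical axis) on each of the 18 arrays, by group (horizontal axis), with a line at the mean of 3 arrays. The 22Rv1 arrays with and without Dox lie between 5.68 and 6.00, while LNCaP arrays lie higher with Dox than without and the M4 scramble arrays lie near 12.4.

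Of 14 genes on the galectin list, 8 passed the detection filter, 1 was called higher and 0 lower at an adjusted p under 0.05 (background over all 13680 genes, 9.14% higher and 15.7% lower, 24.8% in all). LGALS7, a galectin of squamous epithelium, was that 1, with levels of 4.53, 4.78 and 4.64 without Dox and 5.32, 6.46 and 4.75 labelled Dox. Its arrays overlapped, since Dox replicate 3 lay within the range of the arrays without Dox, and the call was lost without any 1 of the other 5 arrays (adjusted p = 0.0505 to 0.288). LGALS1 was the brightest of them at 11.35, 11.46 and 11.40 without Dox and 11.59, 11.66 and 11.46 labelled Dox (change 0.17, adjusted p = 0.577). LGALS8 changed by -0.16 (adjusted p = 0.419).

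Across the whole array, 3394 genes were called, 1250 higher and 2144 lower on the arrays labelled Dox, and 4899 had an unadjusted p under 0.05. By at least 2-fold, 391 rose and 264 fell. By at least 8-fold, 6 rose and 10 fell. Arrays of both groups did not overlap for 38.9% of all genes tested, and for 1169 of the genes called higher and 2087 of those called lower. Among all called genes, 112 were above background on all 3 arrays without Dox and on 0 of the 3 labelled Dox, and 56 were the reverse. The median gene changed by -0.06. When arrays were scaled to a common median instead, it was 0.05, a shift of over 0.1, and 50.2% of called genes were higher against 36.8% in the main result, so the excess of falls depended on the scaling. Changes below are from the main scaling.

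The 6 arrays had mean intensities of 335 to 372 and 42.5% to 44.9% of their 47303 probes above background. Replicates correlated at r = 0.996 without Dox and at 0.976 to 0.987 among the arrays labelled Dox. The median SD of a gene was 0.104 without Dox and 0.206 on the arrays labelled Dox, so that group was the more variable. Dox replicate 3 stood apart from Dox replicate 2 on the leading axis of variation within groups, with scores of -58.3 and 53.01. Dox replicate 3 was the lowest of the Dox arrays in 65.2% of the genes called higher by at least 2-fold and in 24.2% of those called lower by at least 2-fold, against 29.6% of all genes. Without it, 4246 genes were called. Arrays without Dox are called control replicates where 1 of them was left out.

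Keratins 5 and 14 of basal epithelium and CD3E of T cells were above background on 0 of the 6 arrays. Of 6 markers of fibroblasts and matrix, COL1A2, COL3A1, PDGFRB and DCN were above background on 0 of the 6, and COL1A1 and LUM on all 6. Of 4 markers of endothelium, VWF and CDH5 were at 0 of the 6, PECAM1 was above background on 2 arrays without Dox and 1 labelled Dox, and KDR on 2 without Dox and 0 labelled Dox. PTPRC, a marker of white blood cells, was above background on 1 array labelled Dox, and CD14 of monocytes on 2 without Dox and 3 labelled Dox. CD68 of macrophages was above background on all 6. Luminal epithelial markers KRT8, FOXA1 and HOXB13 were above background on all 6. KLK3, which encodes prostate-specific antigen, was above background on 0 of them. LUM, a matrix proteoglycan, was above background on all 6 and rose by 1.38 (adjusted p = 0.00194), with a second probe at 0.76. HBA1, an alpha globin, was above background on all 6 and fell by 2.77-fold. Of the other erythroid markers, HBB was above background on 3 arrays without Dox and 0 labelled Dox, and ALAS2 on 0 of the 6. The part of other cell types in the results was not tested.

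The fall that led all others was that of ALB, the gene of serum albumin, a protein made by liver. Its levels were 13.48, 13.49 and 13.48 without Dox and 7.86, 8.18 and 7.73 on the arrays labelled Dox. All 3 arrays labelled Dox lay far below every array without it, 47.2-fold lower on average (change -5.56, SE 0.17, adjusted p = 1.65e-15), and the second ALB probe changed by -6.16. In LNCaP the change was -0.24 (adjusted p = 0.328).

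Some other secreted proteins typical of liver fell as well. The list held 44 genes, of which 20 passed the detection filter. Of these 8 were called lower and 0 higher, with a median change of -0.27 against -0.06 over all genes. PON1, a paraoxonase of high-density lipoprotein, had levels of 8.32, 8.21 and 8.45 without Dox and 5.41, 5.59 and 4.86 labelled Dox, an 8.22-fold fall, and its second probe changed by -1.95. C5, a complement component, stood at 10.72, 10.69 and 10.78 without Dox and 8.85, 8.68 and 8.90 labelled Dox, a 3.78-fold fall. TFPI, an inhibitor of the tissue factor pathway of clotting, fell from 9.06, 9.08 and 9.14 to 6.71, 7.13 and 7.00, and its other probes changed by -2.19 and -1.004. These 3 genes separated the 6 arrays by label without overlap. TTR, the thyroid hormone carrier transthyretin, fell by 2.52-fold and the clotting factor F5 by 1.75-fold, each above background on 1 of 3 arrays labelled Dox, and the phospholipid-binding protein APOH by 1.72-fold (adjusted p = 0.00838, and 0.0589 in a fit of the 6 arrays alone). FGL1, a hepatokine related to fibrinogen, was not above background on any array labelled Dox. There a fold is given as a bound, the bright group's mean over the lowest measurable signal, and FGL1 was at least 8.31-fold lower (adjusted p = 5.98e-10). Its other probes changed by -0.89, -2.57, 0.09 and -1.29, so 1 of them did not follow. Of the members not called, ANG changed by -0.44 (adjusted p = 0.0862, and 0.0299 in a fit of the 6 arrays alone), HPX by 0.21 and ITIH1 by 0.04. A second ANG probe changed by -0.12. The other 9 were above background on fewer than 3 of the arrays without Dox.

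Of 10 tested transcription factors of liver and gut, 2 were called higher and 1 lower. CEBPA, a factor of hepatocytes and myeloid cells, stood at 6.07, 6.11 and 6.08 without Dox and 7.18, 7.36 and 7.26 labelled Dox and rose 2.27-fold (adjusted p = 3.88e-06). FOXA3, above background on 1 array without Dox and 3 labelled Dox, rose by 0.71. HNF4G, a nuclear receptor, fell by 1.497-fold, with an adjusted p of 0.0741 without Dox replicate 1 and 0.0618 without replicate 2 of the arrays without Dox. FOXA1, the pioneer factor of luminal prostate cells, changed by -0.29 (adjusted p = 0.183) and SOX9 by 0.30 (adjusted p = 0.230). ONECUT2 changed by -0.33 (adjusted p = 0.241) by its brightest probe, while its 3 other probes changed by -1.13, -0.81 and -0.85, so the probes disagreed in size. With the mean of its probes ONECUT2 was called lower (-0.78, adjusted p = 0.000312), and the list counted 2 higher and 2 lower. It was also called lower without background correction (-0.77, adjusted p = 0.00034).

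Of 18 tested genes of intestinal epithelium, where galectin-4 itself is made, 10 fell and 1 rose. The list held 31 genes, and the median change of those tested was -0.54. MYO1A, a myosin of the microvillus core, fell from 7.52, 7.40 and 7.43 to 4.96, 4.61 and 4.89, above background on 2 of the latter 3. VIL1, villin, which bundles actin in microvilli, fell from 6.72, 6.71 and 6.60 to 5.09, 4.78 and 5.38. CDH17, an intestinal cadherin, stood at 7.73, 7.82 and 7.88 without Dox and 5.63, 5.28 and 5.55 labelled Dox. MYO1A, VIL1 and CDH17 were thus 6.20-fold, 3.01-fold and 5.00-fold lower, with no overlap between groups. MUC13, a membrane mucin, fell 4.49-fold, and CEACAM6, an adhesion molecule of mucosal cells, fell 4.57-fold and was above background on 1 of 3 arrays labelled Dox. REG4, a secreted lectin of the regenerating family, was above background on 0 of them and was at least 4.45-fold lower (adjusted p = 1.86e-06). AGR2, a disulfide isomerase that helps mucins fold, fell from 10.64, 10.86 and 10.76 to 8.61, 8.84 and 7.68, and its second probe changed by -2.43. KRT19, a keratin of simple epithelia, fell by 1.67-fold. The exception was TFF2, a trefoil peptide of gastric mucus, at 6.65, 6.84 and 6.78 without Dox and 8.59, 9.12 and 7.33 labelled Dox, which rose 3.01-fold with Dox replicate 3 the lowest of the Dox arrays. FABP1, GPA33, MUC2 and SI were not called.

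Enzymes that form or clear steroids, which set how much androgen a prostate cell sees, also changed, 8 lower and 3 higher of 20 tested. AKR1C2, which reduces dihydrotestosterone, fell from 10.87, 10.90 and 10.85 to 5.91, 6.01 and 5.67, 32.2-fold. Its paralogs AKR1C3, which makes testosterone, and AKR1C4 fell by 3.60-fold and 4.18-fold. The 3 sequences are alike, so a probe may read more than 1 of them. Glucuronosyltransferases of the UGT2B family inactivate androgens, and their probes may share signal in the same way. UGT2B15 fell from 8.68, 8.61 and 8.56 to 6.43, 5.98 and 5.92 and UGT2B10 from 9.04, 9.09 and 9.11 to 6.48, 7.21 and 6.09. UGT2B17, UGT2B11 and UGT2B28 fell by 4.20-fold, 2.29-fold and 2.21-fold. Other probes changed by -1.33 for UGT2B15, -2.33 and -0.35 for UGT2B17 and -0.50 for UGT2B11. UGT2B4 went the other way, from 5.43, 5.24 and 5.25 to 7.21, 7.11 and 6.40, and its second probe changed by 1.85. AKR1D1, the steroid 5-beta-reductase, rose 1.89-fold, while SRD5A1, a 5-alpha-reductase, changed by 0.20 (adjusted p = 0.252).

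Targets of the androgen receptor moved in both directions, 9 lower and 4 higher of 22 tested (median -0.09). PLPP1, a lipid phosphatase, fell from 8.15, 8.00 and 8.21 to 5.66, 5.71 and 5.73, with other probes at -0.46 and -1.39, and SLC45A3, the prostate membrane protein prostein, from 8.01, 7.73 and 7.93 to 5.83, 5.84 and 5.80. TMPRSS2, a serine protease of the prostate surface, fell 2.64-fold, C1orf116 fell 2.79-fold (other probes at -0.60 and -2.08), ACP3, the prostatic acid phosphatase, 2.35-fold and STEAP2, a metalloreductase, 2.06-fold. FKBP5, an immunophilin in the receptor's chaperone complex, rose from 10.65, 10.57 and 10.63 to 11.64, 11.41 and 12.25. KLK2, a kallikrein close to prostate-specific antigen, rose from 5.40, 5.24 and 5.70 to 6.45, 6.24 and 6.41. NDRG1 rose 2.26-fold and is also counted under hypoxia below. The direction therefore differed between members that respond to the same receptor.

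Among 11 luminal and lineage genes, 4 rose and 3 fell. TMEFF2, a transmembrane protein of prostate and brain, fell from 10.33, 10.14 and 10.22 to 6.33, 6.72 and 6.81, 12.2-fold. FOLH1, which encodes prostate-specific membrane antigen, fell from 7.75, 7.76 and 7.78 to 5.37, 5.44 and 5.25, and its second probe changed by -1.40. HOXB13, the homeobox factor of prostate epithelium, fell 2.35-fold. EPCAM, a surface glycoprotein of simple epithelia, rose from 10.54, 10.69 and 10.50 to 12.84, 12.79 and 13.03, 4.95-fold, and its 2 other probes rose by 2.86 and 2.72. GATA2, a transcription factor of luminal cells, rose 1.66-fold. KRT18, a luminal keratin, rose 1.65-fold, but its second probe changed by -0.17 and the mean of its probes by 0.27 (adjusted p = 0.165).

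ERBB2, the gene of the receptor tyrosine kinase HER2, rose from 8.60, 8.58 and 8.65 without Dox to 11.40, 10.98 and 11.66 on the arrays labelled Dox. The 6.70-fold rise (change 2.74, SE 0.14, adjusted p = 8.89e-12) rested on 1 probe. Its partners were not called in the main fit: EGFR changed by 0.42 (adjusted p = 0.104) and ERBB3 by -0.05 (adjusted p = 0.883). EGFR was called higher with array weights (0.44, adjusted p = 0.0108). It was also called with the leading axis of variation within groups as covariate (adjusted p = 0.0148). A dim second EGFR probe changed by -0.09. Genes beside ERBB2 on chromosome 17 moved in different directions, and copy number was not tested. STARD3 and PPP1R1B fell by 0.52 and 0.75 on the log2 scale (PPP1R1B not called with the mean of its probes, -0.28 and adjusted p = 0.0569), MIEN1 rose by 0.41 with overlapping arrays, and the calls of STARD3 and MIEN1 were lost without any 1 array other than Dox replicate 1 (adjusted p up to 0.198 and 0.151). Besides, PGAP3 and GRB7 changed by 0.12 and 0.10 (adjusted p = 0.551 and 0.687). Of 14 tested genes of this family and its ligands, 3 rose and 3 fell, or 2 and 2 without Dox replicate 3, and 1 fell without Dox replicate 2 or control replicate 2. LRIG1, a membrane inhibitor of ERBB receptors, rose from 5.47, 5.91 and 5.65 to 6.93, 6.79 and 7.16, with a second probe at 0.86. ERRFI1, a cytoplasmic inhibitor of the EGFR kinase, fell 1.82-fold. HBEGF and TGFA, other ligands, were not called. The TGFA probe changed by 0.05 and a second, also dim, by 0.55. HBEGF was called higher with median scaling (0.43, adjusted p = 0.0422).

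Genes that follow activity of the ERK kinases, downstream of these receptors, showed no common direction, with 2 higher and 3 lower of 24 tested. Their called share of 20.8% was below the 24.8% of all genes. DUSP5, a phosphatase that inactivates ERK, rose 1.77-fold. SPRY4, a feedback inhibitor, fell 1.77-fold by 1 dim probe, its others at 0.10 and 0.21, and ETV4, a transcription factor, 1.65-fold. The other 2, SPRY1 at 0.45 and JUND at -0.41, lost their calls without any 1 array other than Dox replicate 2 and Dox replicate 3 in turn (adjusted p up to 0.0790 and 0.197). DUSP6 changed by -0.33 (adjusted p = 0.0711), EGR1 by -0.46 (adjusted p = 0.0596) and FOS by -0.001 (adjusted p = 0.995). EGR1 was called lower without Dox replicate 3 (-0.57, adjusted p = 0.0285) and the list counted 1 higher and 5 lower. DUSP6 was called lower without background correction (adjusted p = 0.00893). MYC changed by -0.10 (adjusted p = 0.730).

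CDH2, the gene of N-cadherin, a mesenchymal and neural adhesion protein, fell from 10.05, 10.08 and 9.97 to 5.46, 5.81 and 6.25, 18.3-fold (SE 0.18, adjusted p = 6.36e-13). CDH1, its epithelial counterpart E-cadherin, changed by -0.31 (adjusted p = 0.260). Of 17 tested genes of cadherins and of the change from epithelial to mesenchymal form, 8 fell and 0 rose, with a median of -0.32. SNAI2, a repressor of epithelial genes, was at least 1.64-fold lower with a second probe at -0.41, and TWIST1 fell 1.60-fold. CDH6, CDH7 and CDH12 were above background on 3 arrays without Dox and 0 labelled Dox, at least 2.16-fold, 1.30-fold and 1.23-fold lower. VIM, vimentin, changed by -0.32 (adjusted p = 0.155). Several cadherins were thus lower, while the call of E-cadherin turned on Dox replicate 3. Without that array CDH1 and VIM were called lower, at -0.53 and -0.44 (adjusted p = 0.0328 and 0.0488), and 11 of the list were lower, with a median of -0.53.

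ITGA5, the alpha chain of the fibronectin receptor, rose from 5.48, 5.39 and 5.55 to 8.73, 8.22 and 9.08, 9.23-fold (adjusted p = 5.87e-11). It was the 1 called gene of 16 tested integrins, or 1 of 3 without Dox replicate 3. Its partner ITGB1 changed by -0.19 (adjusted p = 0.428), ITGAV by -0.02 and ITGA2 by -0.41 (adjusted p = 0.0795). ITGA2 was called lower without Dox replicate 3 (-0.65, adjusted p = 0.00143).

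Junction and keratin genes rose in 7 cases and fell in 3 of 27 tested, or 6 and 6 without Dox replicate 3. KRT7, above background on 1 array without Dox, rose 2.09-fold, CTNNB1, the catenin that links cadherins to actin and carries the Wnt signal, 1.86-fold (other probes at 0.14 and 1.03), and CGN, cingulin of tight junctions, 1.54-fold. JUP, plakoglobin, fell 1.75-fold and MARVELD2, tricellulin, 1.94-fold with a dim second probe at -0.04.

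CHRD, which encodes chordin, a secreted protein that traps bone morphogenetic proteins (BMPs), had levels of 4.82, 4.81 and 4.77 without Dox and 7.81, 7.81 and 7.78 on the arrays labelled Dox. Replicates were nearly identical, and the 8.00-fold rise (adjusted p = 9.39e-14) was among the 10 smallest p-values. BMP2, a ligand that chordin binds, fell from 7.23, 7.24 and 7.08 to 4.71, 4.53 and 5.15, and was above background on 1 of 3 arrays labelled Dox. Some targets of the pathway were lower. SMAD7, an inhibitory SMAD, fell 1.85-fold with a second probe at -0.96, and ID2 and ID3, inhibitors of differentiation factors, fell 2.09-fold and 1.93-fold. The call of ID3 was lost without Dox replicate 1 or 2, or without replicate 1 or 3 of the arrays without Dox (adjusted p = 0.0622 to 0.0756). Other targets, named here after their values were seen, were not called: ID1 at -0.94, ID4 at -0.39 and SMAD6 at -0.33 (adjusted p = 0.103, 0.421 and 0.121). ID1 was called lower in a fit of the 6 arrays alone (adjusted p = 0.00201) and with array weights (adjusted p = 0.0123). CCN2, connective tissue growth factor, fell from 7.55, 7.34 and 7.46 to 5.43, 5.38 and 5.44, with a second probe at -1.06. BAMBI, a decoy receptor, rose 1.76-fold, FSTL3, which binds activin, 1.71-fold, INHBB, an activin subunit, 1.82-fold and TGFB3 1.79-fold. In all, 7 rose and 7 fell of 33 tested, and 4 fell with median scaling, or without Dox replicate 1 or control replicate 1. CFC1, a co-receptor of the related ligand Nodal, was at least 5.78-fold lower (adjusted p = 1.14e-12), with a second probe at -0.52.

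Genes induced by low oxygen rose as a block. Cells that lack oxygen stabilize the hypoxia-inducible factor, HIF, which binds the core sequence ACGTG or GCGTG near genes for glucose use, vessel growth and mitochondrial turnover. Of 47 genes listed, 40 were tested, 31 were called higher and 0 lower, and the median change was 0.80. DDIT4, an inhibitor of the growth kinase complex mTORC1, rose from 8.99, 9.13 and 8.91 to 11.36, 11.11 and 11.69. BNIP3, which drives mitophagy, rose from 10.42, 10.55 and 10.52 to 12.33, 12.41 and 12.25. VEGFA, the vessel growth factor, rose from 6.56, 6.83 and 6.79 to 8.58, 8.18 and 8.59, with a second probe at 0.89. All 3 arrays labelled Dox lay above every array without Dox for each of these, 5.20-fold, 3.57-fold and 3.31-fold higher. ANKRD37 rose from 5.87, 5.83 and 5.69 to 9.17, 9.46 and 7.99, with Dox replicate 3 the lowest of the Dox arrays. Regulators of glycolytic flux PFKFB3 and PFKFB4 rose 2.56-fold and 2.59-fold, STC2, a secreted glycoprotein, 2.57-fold, ANGPTL4, which inhibits lipoprotein lipase, 2.52-fold and COXFA4L2, a mitochondrial subunit-like protein also named NDUFA4L2, 2.55-fold. Other probes changed by 0.76 for PFKFB3 and by 0.39 and 0.91 for ANGPTL4. BHLHE40, a transcriptional repressor above background on 2 arrays without Dox, rose from 4.70, 4.60 and 4.76 to 6.30, 5.80 and 6.59, and its relative BHLHE41, not above background without Dox, was at least 4.33-fold higher. HIF1A and ARNT, the subunits of HIF itself, named here after their values were seen, changed by 0.19 and -0.15 (adjusted p = 0.579 and 0.526). Without Dox replicate 3, 29 members were called higher and 1 lower.

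**Figure D2:**
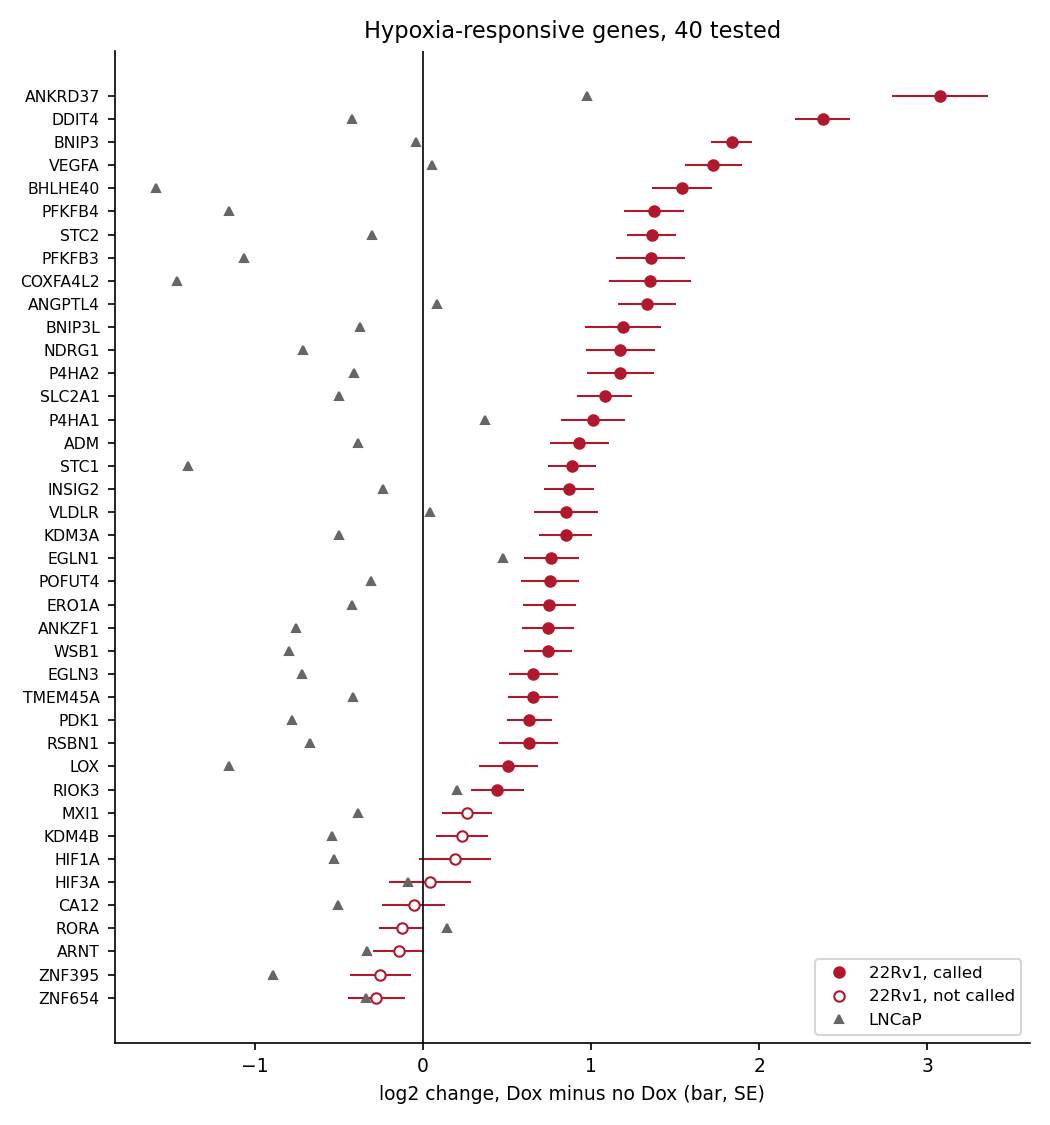
Change in log2 intensity, Dox minus no Dox (horizontal axis), of the 40 tested hypoxia-responsive genes in 22Rv1 (circles with SE, filled where called) and in LNCaP (triangles). In 22Rv1 31 are called higher and 0 lower, from ANKRD37 at 3.08 downwards, and most triangles lie left of zero.

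Promoters of 4 risers are shown because they hold the core sequence close to the start of transcription. They were picked from the list after the motif search. Each covers the 250 bases before the annotated start from RefSeq (GRCh38.p14), 5′ to 3′ on the gene's strand, with ACGTG and GCGTG of either strand in capitals, so the reverse strand appears as CACGT or CACGC and overlapping matches run together. BNIP3 is at chr10:131981924-131982173 on the minus strand, ANKRD37 at chr4:185396591-185396840, DDIT4 at chr10:72273674-72273923 and BHLHE40 at chr3:4979187-4979436 on the plus strand.
BNIP3: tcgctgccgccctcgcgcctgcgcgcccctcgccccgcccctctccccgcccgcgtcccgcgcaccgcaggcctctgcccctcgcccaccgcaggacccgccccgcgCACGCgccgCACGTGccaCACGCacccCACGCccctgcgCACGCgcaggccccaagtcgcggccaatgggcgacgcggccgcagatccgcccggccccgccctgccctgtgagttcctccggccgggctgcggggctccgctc
ANKRD37: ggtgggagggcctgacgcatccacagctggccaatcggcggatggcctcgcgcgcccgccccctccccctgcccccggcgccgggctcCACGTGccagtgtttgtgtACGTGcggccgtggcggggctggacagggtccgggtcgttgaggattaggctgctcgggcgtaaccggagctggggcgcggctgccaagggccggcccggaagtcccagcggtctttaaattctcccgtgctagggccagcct
DDIT4: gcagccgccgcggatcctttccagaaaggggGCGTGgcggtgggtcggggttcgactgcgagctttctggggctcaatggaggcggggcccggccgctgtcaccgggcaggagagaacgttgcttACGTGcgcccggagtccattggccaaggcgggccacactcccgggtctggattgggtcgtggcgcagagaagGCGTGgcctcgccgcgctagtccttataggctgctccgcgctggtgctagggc
BHLHE40: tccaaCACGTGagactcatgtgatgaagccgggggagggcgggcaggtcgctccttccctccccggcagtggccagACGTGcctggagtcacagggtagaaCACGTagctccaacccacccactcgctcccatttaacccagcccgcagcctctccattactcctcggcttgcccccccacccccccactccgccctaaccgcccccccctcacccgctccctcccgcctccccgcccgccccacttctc
These stretches held 6, 3, 3 and 4 matches. In windows of 300 bases (250 before and 50 after the start), either core was found in 21 of 25 promoters of list members called higher, which is 84%, against 62.1% of the 10801 promoters of tested genes. The stricter core ACGTG was in 52% against 26.6%. Over all tested list members, called or not, the shares were 78.1% (25 of 32) and 43.8%, also above those of tested genes. Over all 27305 promoters in the table these shares were 48.4% and 21.6%. Genes called higher in general held either core in 63.4% and genes called lower in 62.5%. Most promoters of tested genes thus held either core, and a match is a description of the sequence and not a site in use.

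Glycolysis genes as a whole moved less, with 5 higher and 1 lower of 22 tested and a median of 0.22. Their called share was 27.3%, against 24.8% of all genes. PGK1, a kinase that makes ATP in glycolysis, rose from 10.99, 11.19 and 11.05 to 12.28, 12.08 and 12.64, with a second probe at 1.61. HK2, hexokinase 2, rose 1.96-fold, ALDOC, an aldolase, 1.79-fold and LDHA, which makes lactate, 1.48-fold. ENO2 changed by 0.19 (adjusted p = 0.517). PCK2, a mitochondrial enzyme of the reverse route, fell 1.51-fold, with dim other probes at -0.01 and -0.27. Without Dox replicate 3, 4 were called higher and 1 lower, and 9 were higher with median scaling and 8 without Dox replicate 2.

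Genes of DNA replication and entry into S phase fell, 29 lower and 1 higher of 47 tested, with a median of -0.47. With median scaling 15 were lower and the median was -0.36, and 31 were lower without Dox replicate 3 and 19 without Dox replicate 2. POLE, the catalytic subunit of a replicative polymerase, fell from 8.60, 8.40 and 8.42 to 7.09, 6.90 and 7.59. MCM2 and MCM5, subunits of the helicase that opens origins, fell from 9.60, 9.53 and 9.51 to 8.31, 8.09 and 8.88 and from 9.00, 9.02 and 9.03 to 7.90, 7.87 and 8.12. The falls were 2.43-fold, 2.17-fold and 2.08-fold, without overlap. TK1, thymidine kinase, fell 1.82-fold, RRM1, which makes deoxynucleotides, 1.71-fold, LIG1, a DNA ligase, 1.68-fold and CDC25A, a phosphatase that starts S phase, 1.67-fold. MCM7 fell 1.56-fold by its brightest probe, but its 2 dim probes changed by 0.19 and 0.09, and with median scaling it was not called (adjusted p = 0.131).

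Mitotic genes counted 4 higher and 9 lower of 52 tested and a median of -0.08. Their called share was close to the 24.8% of all genes. Without Dox replicate 3, 7 were higher and 17 lower, and in a fit of the 6 arrays alone 0 and 5. Without control replicate 3, 3 were lower. FOXM1, the factor that drives mitotic genes, fell 1.62-fold, with an adjusted p of 0.0599 without Dox replicate 2, and CDC25B, a phosphatase that starts mitosis, fell 1.74-fold. The 4 risers shared a pattern among arrays. MAD2L1, a spindle checkpoint protein, stood at 9.74, 9.86 and 9.79 without Dox and 10.81, 10.96 and 9.81 labelled Dox. CDK1, the mitotic kinase, stood at 9.85, 10.06 and 10.20 without Dox and 11.17, 11.15 and 9.80 labelled Dox, and HMMR and NUF2 were alike. In each of the 4, Dox replicates 1 and 2 lay above all arrays without Dox and Dox replicate 3 did not, so the groups overlapped. Without Dox replicate 1 or 2 none of the 4 was called (adjusted p = 0.0653 to 0.270). CDK1, HMMR and NUF2 were also not called without any 1 of the arrays without Dox (adjusted p up to 0.159). Clustered histone genes, transcribed in S phase, were lower in 13 and higher in 0 of 43 tested, and lower in 7 without control replicate 1. H2AC18, H2AC20 and H2AC19 fell 2.26-fold, 2.16-fold and 1.90-fold, and their sequences are alike. Among inhibitors of the cell cycle and targets of p53, 4 rose and 2 fell of 25 tested, a called share of 24.0% against 24.8%. With Dox replicate 3 left out, 2 rose and 4 fell. BAX, a protein that permeabilizes mitochondria in cell death, fell 2.18-fold by its brightest probe, with other probes at -0.43 and 0.01. ZMAT3 rose 2.57-fold by its brightest probe, with other probes at 0.03 and 0.56.

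Several chaperones of the endoplasmic reticulum fell. The unfolded protein response raises these genes when misfolded proteins gather in that compartment. On this list 12 of 28 tested were lower and 2 higher, with a median of -0.34. CRELD2 fell from 11.71, 11.59 and 11.53 to 10.33, 10.19 and 10.64 and HSPA5, the chaperone BiP, from 8.11, 8.07 and 8.12 to 6.91, 6.80 and 7.27. MANF, CALR, HSP90B1 and DNAJB11 fell 2.12-fold, 1.91-fold, 1.82-fold and 1.77-fold, and HYOU1 fell 1.65-fold with a second probe at -0.99. With median scaling HSP90B1 was not called (adjusted p = 0.0590), and 10 of the list were lower. XBP1, a transcription factor of the response, rose 1.67-fold with a second probe at 0.51.

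The integrated stress response, which supplies amino acids under stress, was split, with 5 higher and 10 lower of 40 tested, and 5 lower without Dox replicate 2 or control replicate 1. SLC7A5, the carrier of large neutral amino acids, rose from 10.93, 10.70 and 10.85 to 12.45, 11.97 and 12.89, and its heavy chain SLC3A2 rose 1.91-fold with a second probe at 2.23. Both chains of this transporter therefore rose. ATF5, a stress factor, fell 2.40-fold, GARS1, a tRNA synthetase, 1.64-fold, PHGDH, the first enzyme of serine synthesis, 1.52-fold and ASNS, asparagine synthetase, 1.42-fold. With median scaling 8 were higher and 2 lower, and PHGDH and ASNS were not called (adjusted p = 0.0807 and 0.143), so the excess of falls depended on the scaling.

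Cholesterol synthesis genes were lower in 12 and higher in 2 of 23 tested, with a median of -0.42. HMGCS1, an early enzyme of the pathway, fell from 11.51, 11.63 and 11.76 to 10.61, 10.62 and 10.68. NSDHL, SQLE, DHCR7 and EBP, which act on squalene and sterols, fell 1.93-fold, 1.78-fold, 1.68-fold and 1.76-fold. LSS, lanosterol synthase, fell 2.76-fold by its brightest probe while its dim probes changed by -0.03 and -0.52. HSD17B7, a late enzyme, rose from 10.19, 10.04 and 10.24 to 12.03, 11.81 and 11.43, with Dox replicate 3 the lowest of the Dox arrays. Fatty acid genes were split, 7 higher and 5 lower of 25. ACSL1, which activates fatty acids, rose from 6.97, 6.94 and 7.07 to 8.56, 8.48 and 8.85, ELOVL5 and ELOVL2 (above background on 2 arrays without Dox), elongases of unsaturated chains, rose 1.72-fold and 2.11-fold, and ELOVL6, an elongase of saturated chains, fell 1.84-fold. Without Dox replicate 3, 7 fatty acid genes were higher and 8 lower, and 3 were lower without Dox replicate 2 or control replicate 2.

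Metallothioneins bind zinc and copper and rise with metal or glucocorticoid. The list, which also holds their transcription factor MTF1 and the zinc exporter SLC30A1, had 8 lower and 1 higher of 10 tested, with a median of -1.37, and 5 lower without Dox replicate 1. MT1G fell from 11.27, 11.44 and 11.45 to 8.52, 8.97 and 8.65 and MT1H from 9.28, 9.42 and 9.32 to 6.52, 6.94 and 6.41. MT1F, MT1E and MT1X fell 4.20-fold, 2.66-fold and 2.52-fold, and MT1M was at least 3.03-fold lower (adjusted p = 0.0118, and 0.234 without background correction). MT1X kept its call only without Dox replicate 2 (adjusted p = 0.0531 to 0.0993 without any 1 of the other 5 arrays). Sequences of the MT1 genes are alike, so these probes may share signal, and a dim second MT1H probe changed by -0.35. MT2A changed by -0.52 (adjusted p = 0.428) although its arrays did not overlap, and was called lower in a fit of the 6 arrays alone (adjusted p = 0.0369). MTF1 and SLC30A1 fell 1.49-fold and 1.57-fold. MTF1 was not called without Dox replicate 1 or 2 or without replicate 1 of the arrays without Dox, and SLC30A1 without Dox replicate 1 or replicate 2 of the arrays without Dox (adjusted p = 0.0518 to 0.0664). MT3, the neural form, was not above background without Dox and was at least 4.14-fold higher. MT3 was thus the 1 riser of the list.

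Targets of the oxidative stress factor NRF2 counted 14 lower and 5 higher of 33 tested, 7 and 5 with median scaling, and 8 lower without Dox replicate 2 or control replicate 2. Besides the AKR1C genes, NQO1, a quinone reductase, fell 1.71-fold and TXNRD1, thioredoxin reductase, 1.71-fold. Their second probes changed by -0.23 and 0.15, and with the mean of probes neither was called (adjusted p = 0.0843 and 0.110). ABCC2, an exporter of conjugated drugs and bile pigments, was at least 1.83-fold lower. GPX2, a gut glutathione peroxidase, rose 2.28-fold, GSTP1, a glutathione transferase, 2.29-fold and EPHX1, an epoxide hydrolase, 2.65-fold. GCLM, a subunit of the enzyme that starts glutathione synthesis, rose 3.39-fold by 1 probe and changed by 0.08 by the other.

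Antigen presentation genes of class II split by gene. HLA-DQB1 was above background on 0 of 3 arrays labelled Dox and at least 7.62-fold lower, and HLA-DMB, which loads peptide onto class II molecules, fell from 8.24, 8.26 and 8.51 to 5.80, 6.47 and 6.13. HLA-DRA, the alpha chain of HLA-DR, rose 1.90-fold, with a dim second probe at 0.17. Of class I and interferon genes, 4 were higher and 7 lower of 32, and 2 were higher without Dox replicate 2. HLA-B rose 2.14-fold, HLA-F was at least 1.91-fold higher with a second probe at 0.31, and IFITM3 and TAP1 fell 1.60-fold and 1.41-fold. Genes of this family are alike and vary between people, so a probe may read more than 1 of them.

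Neural and neuroendocrine genes, which some prostate cancers gain after androgen withdrawal, moved both ways, 6 higher and 11 lower of 35 tested. BASP1, a membrane protein of growing nerve endings, rose from 7.49, 7.74 and 7.55 to 10.93, 10.81 and 11.30. POU3F2, a neural transcription factor, rose from 6.12, 6.23 and 6.20 to 8.62, 8.71 and 9.14, and its second probe by 2.55. MAPT, the microtubule protein tau, rose 4.89-fold, with a dim second probe at 0.49. CBLN2, a synaptic organizer, fell from 9.73, 9.70 and 9.77 to 5.38, 5.36 and 5.44. SYT4, a synaptotagmin, fell from 12.31, 12.28 and 12.31 to 9.87, 10.05 and 9.39, and CHGB and SCG3, proteins of secretory granules, fell 3.38-fold and 2.28-fold. DDC, which makes dopamine, fell 2.93-fold. SYP and CHGA, the usual diagnostic markers, were not called (adjusted p = 0.197 and 0.569), nor was INSM1 (adjusted p = 0.333).

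Enzymes that build O-glycans, among the sugar chains that galectins can bind, were higher in 7 and lower in 9 of 34 tested. GALNT12, which starts such chains, rose from 5.13, 5.12 and 5.34 to 7.26, 6.98 and 7.32 and GALNT7 rose 1.87-fold. GALNT3 rose from 5.93, 6.02 and 6.28 to 8.35, 8.11 and 7.27, again with Dox replicate 3 the lowest of the Dox arrays. ST3GAL1, which caps chains with sialic acid, fell from 8.88, 8.81 and 8.70 to 7.48, 7.08 and 7.38, with other probes at -1.56 and -0.13. GCNT1, which branches them, fell 2.25-fold, with a dim second probe at -0.06.

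Among factors of stem and progenitor cells, ALDH1A1, a retinaldehyde dehydrogenase, fell from 8.55, 8.71 and 8.47 to 5.95, 6.02 and 5.84, and its second probe by 2.77 on the log2 scale. KIT, CD44 and ALCAM rose 1.65-fold, 1.51-fold and 1.66-fold, the other called genes of 16 tested. The called share of this list was close to the 24.8% of all genes. Cancer-testis antigens rose in 7 and fell in 3 of 25, and 4 rose without Dox replicate 2 or control replicate 2. Among them were VCX, VCX2 and VCX3A, which are alike in sequence and stood 1.76-fold, 1.75-fold and 1.71-fold higher. ABCC5, an exporter of nucleotides, rose 2.27-fold with a second probe at 1.18. Genes of the mitochondrial ribosome (7 higher and 7 lower of 77) and of oxidative phosphorylation (2 higher and 9 lower of 71) had called shares below the 24.8% of all genes. Without Dox replicate 3 the counts were 22 and 8, and 8 and 15, so that 39.0% and 32.4% were called against 31.0% of all genes in that fit.

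Large falls outside the lists included IGFBP3, which binds insulin-like growth factors, at 11.09, 10.92 and 11.28 without Dox and 8.47, 8.47 and 8.25 labelled Dox, with a second probe at -2.79. MAOA, monoamine oxidase A, fell from 10.82, 10.84 and 10.86 to 8.06, 8.01 and 8.28. CLDN11, a tight junction claudin, CRIP1, a LIM domain protein, EFNB2, an ephrin ligand, and TNFRSF21, a death receptor, fell 6.08-fold, 7.22-fold, 4.94-fold and 4.67-fold. AOX1, aldehyde oxidase, and COLCA1 were above background on 0 of 3 arrays labelled Dox and at least 3.58-fold and 6.98-fold lower. SYTL2, EPHA3 and RCAN2 fell 11.6-fold, 4.96-fold and at least 4.89-fold by their brightest probes. Their other probes, all dim, changed by -0.09, by -0.22 and -0.24 and by -0.20. DHRS2, a reductase, fell 5.40-fold and its second probe by 2.04 on the log2 scale.

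**Figure D3:**
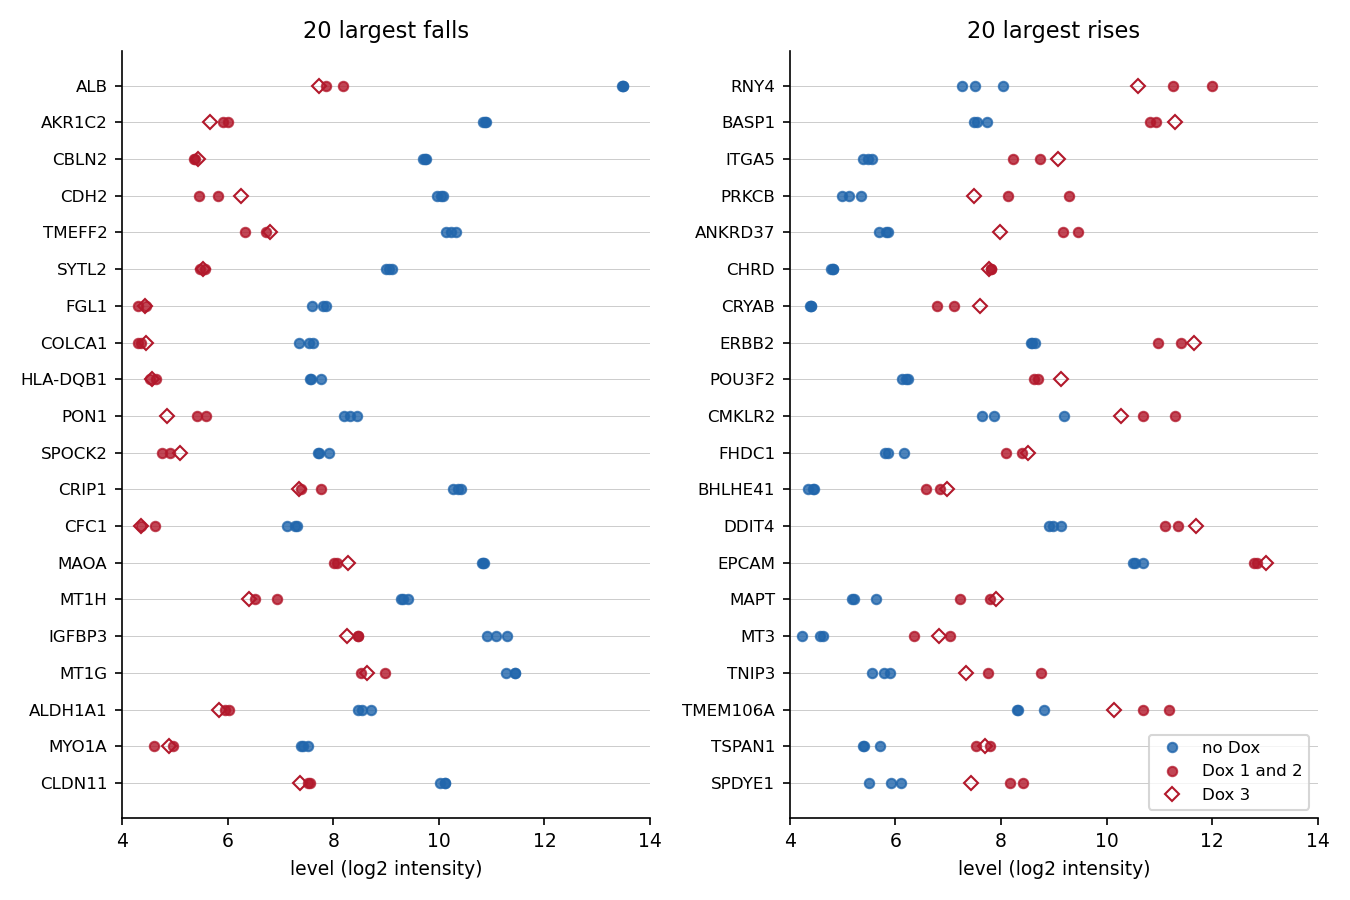
Levels (log2 intensity, horizontal axes) on each 22Rv1 array for the 20 largest falls and the 20 largest rises among called genes without overlap. Blue marks arrays without Dox, red circles Dox replicates 1 and 2, and open diamonds Dox replicate 3. Over the 40 largest of each, the median Dox SD was 0.183 for falls and 0.450 for rises. Dox replicate 3 was the lowest Dox array in 16 of those falls and 23 of those rises. The diamond is lowest in ALB, AKR1C2 and PON1 among the falls and in RNY4, PRKCB, ANKRD37 and TMEM106A among the rises.

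Large rises differed in their spread. CRYAB, a small heat shock protein, was not above background without Dox and was at least 5.58-fold higher. FHDC1, a formin, rose from 5.80, 5.85 and 6.16 to 8.39, 8.09 and 8.52, TSPAN1, a tetraspanin, from 5.39, 5.70 and 5.41 to 7.52, 7.79 and 7.69 and TSC22D3, a leucine zipper protein induced by glucocorticoids, from 7.77, 7.60 and 7.71 to 9.87, 9.53 and 9.96 with other probes at 0.58 and 2.25. FHDC1, TSPAN1 and TSC22D3 kept close values among the 3 arrays labelled Dox. In 23 of the 40 largest rises Dox replicate 3 was instead the lowest of the Dox arrays, and their median Dox SD was 0.552. CMKLR2, a chemerin receptor whose replicate 3 without Dox stood apart, rose from 7.64, 7.87 and 9.19 to 11.30, 10.69 and 10.28, TMEM106A from 8.33, 8.31 and 8.81 to 11.18, 10.69 and 10.14 and PRKCB, a protein kinase C, from 4.98, 5.36 and 5.12 to 8.13, 9.28 and 7.49. The same 23 genes had a median change of -0.68 in LNCaP, where 19 of them were below -0.50 and 1 was called. For the other 17 of the 40 the median Dox SD was 0.335 and the LNCaP median -0.21, with 5 below -0.50 and 6 called. RNY4, a small RNA, had the largest rise of all, from 7.26, 8.05 and 7.502 to 11.26, 12.00 and 10.59, and its relative RNY5 rose 2.97-fold.

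Second probes were set beside the probe that stood for each gene. Of 77 genes called lower by at least 2-fold that had another passing probe, 45 (58.4%) had a probe that moved the same way by at least 1.5-fold. Of 173 genes called higher by at least 2-fold, 61 (35.3%) had one, and the median change of the other probes was 0.23 against 1.46 for the first probe. Among the risers the share was 26.0% (33 of 127) where Dox replicate 3 was the lowest Dox array and 60.9% (28 of 46) where it was not. CD68, a lysosomal protein of macrophages, rose 4.15-fold by its brightest probe and another changed by -0.50. CCBE1, SNAPC1, NDUFAF7, ZNF160 and ZNF626 rose 4.19-fold, 4.40-fold, 4.30-fold, 4.08-fold and 4.48-fold, while their other probes changed by -0.08, by 0.23, by 0.20 and 0.44, by -0.12 and by 0.19. Probes of a gene can read different transcripts, and which of them stands for the gene was not tested.

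**Figure D4:**
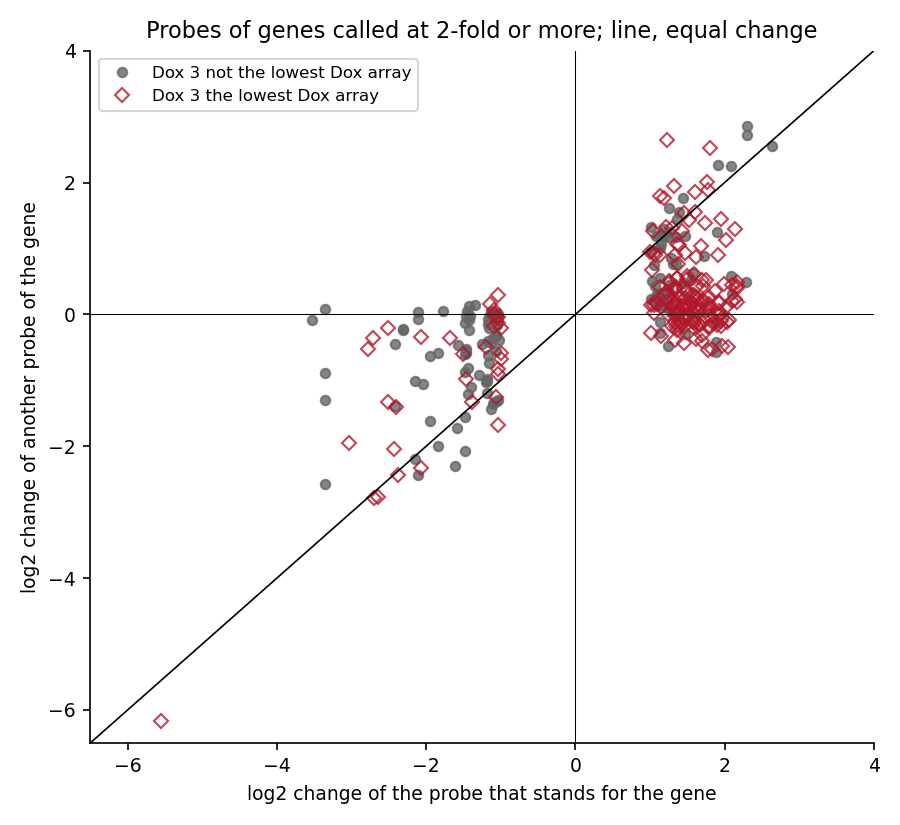
Change of the probe that stands for a gene (horizontal axis) and of each other passing probe of that gene (vertical axis), in log2 intensity, for genes called at 2-fold or more, with a line of equal change. Open diamonds mark genes in which Dox replicate 3 was the lowest Dox array. Many risers between 1 and 2.2 have another probe near 0, whereas EPCAM, POU3F2 and ALB lie near the line.

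**Figure D5:**
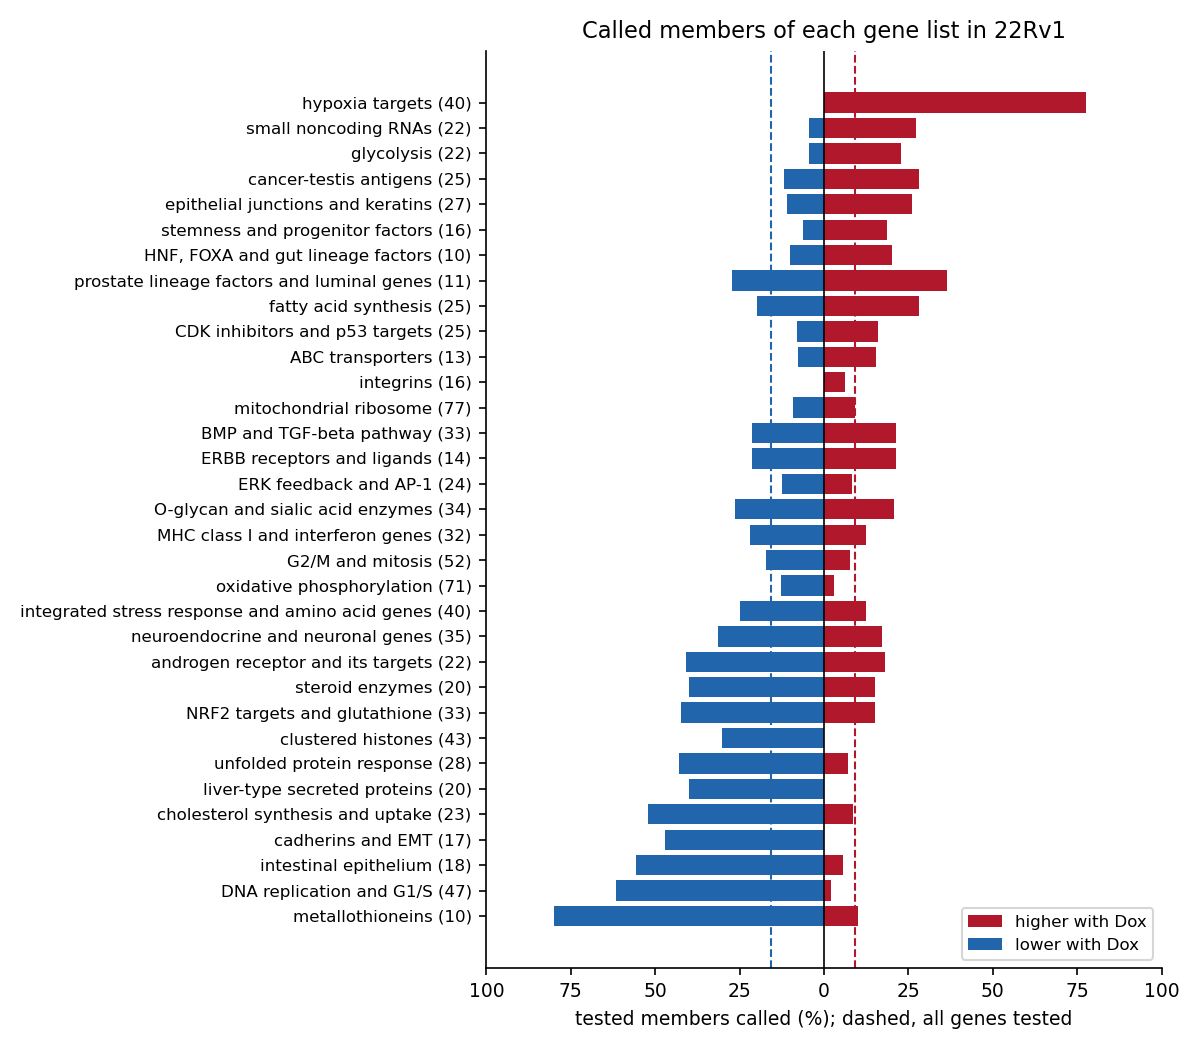
Share of tested members called higher (right) and lower (left) on the arrays labelled Dox, in percent, for the 33 gene lists with at least 10 tested members, whose number stands in brackets. Dashed lines give the shares over all genes tested, 9.14% and 15.7%. Hypoxia genes reach 77.5% higher, and metallothioneins, replication, intestinal and cholesterol genes exceed 50% lower.

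Responses to Dox in 22Rv1 and in LNCaP, whose arrays are separate, differed for 2572 genes (18.8% of those tested, adjusted p under 0.05 for the difference), 1288 higher and 1284 lower in 22Rv1 relative to LNCaP. Of the 3394 genes called in 22Rv1, 1499 were among them. For ALB the difference was -5.32 (SE 0.24, adjusted p = 4.31e-12), for AKR1C2 -4.87, for CDH2 -4.13, for TMEFF2 -3.78 and for AGR2 -3.75. In the other direction it was 3.77 for ITGA5, 3.22 for CMKLR2, 3.19 for BASP1, 3.14 for ERBB2 and 3.13 for BHLHE40. A gene near background in LNCaP could not fall there, and LNCaP levels of these genes are not given here. BHLHE40 changed by -1.59 in LNCaP (adjusted p = 1.06e-05), so the lines moved it in opposite directions. Of the 40 hypoxia genes, 30 had a response that was higher in 22Rv1 than in LNCaP and 0 a lower one, and their median in LNCaP was -0.42. Of the 47 replication genes, 1 had a higher and 3 a lower response in 22Rv1, and their median in LNCaP was -0.37. For LGALS4 itself the difference was -1.98 (adjusted p = 0.000111).

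Genes called lower in 22Rv1 included 585 also called lower in LNCaP, which is 27.3% of the 22Rv1 list and 25.2% of the LNCaP list, against 17.0% of all genes called lower in LNCaP. Genes called higher in both numbered 202, 16.2% of the 22Rv1 list and 13.6% of the LNCaP list, against 10.9% of all genes. In opposite directions, 219 were higher in 22Rv1 and lower in LNCaP (17.5% of the 22Rv1 list and 9.44% of the LNCaP list, against 17.0% of all genes), and 81 were lower in 22Rv1 and higher in LNCaP (3.78% and 5.44%, against 10.9%). Against the galectin-4 knockdown in 22Rv1-M4, 496 genes were lower with Dox and higher in the knockdown, 23.1% of the 22Rv1 list and 27.9% of the knockdown list, against 13.0% of all genes. Another 268 were higher with Dox and lower in the knockdown, 21.4% and 18.97% of these lists, against 10.3% of all genes. In the same direction as the knockdown, 152 were higher and 246 lower, which is 12.2% and 11.5% of the 22Rv1 lists, against 13.0% and 10.3% of all genes.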

How the data were processed

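Illumina bead arrays with 47303 probes were read for 18 samples, 3 in each of 6 groups. The deposited table holds, per the file headers, an average signal intensity and a detection p-value per probe and array, and the authors' deposited matrix holds log2 values of the same arrays after quantile normalization, as its match to these intensities showed. How many beads or scans lie behind a value is not given in the sources used here. Probes were named from the platform annotation: 30103 had 1 gene symbol, 8 several and 17192 none, and 30064 matched RefSeq by Entrez ID.

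From the intensities, neqc of limma 3.58.1 (R 4.3.3, statmod 1.5.0) corrected background from the detection p-values with an offset of 16, quantile-normalized and took log2. Probes detected at p under 0.05 on at least 3 arrays were kept (18408), and the probe with the highest mean stood for each of 13680 genes, 3695 of which had others. A linear model over all 18 arrays with 1 mean per group (12 residual degrees of freedom, prior 8.73) and empirical Bayes moderation gave changes, standard errors and p-values, adjusted over all genes by Benjamini-Hochberg. The response in 22Rv1 minus that in LNCaP was tested in the same model. A gene was called at an adjusted p under 0.05. The number of arrays limits the precision. The fit was tested on simulated data in which every group shared 1 SD per gene. That setting left out the wider spread of the arrays labelled Dox.

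Genes that could be named were LGALS4, the 40 largest rises and 40 largest falls among called genes with non-overlapping arrays, the 10 smallest p-values, up to 10 called members per gene list, any member of core lists, and the 5 largest differences from LNCaP in each direction. The comparison, the gene lists and this rule were chosen with earlier results of these data known. Promoters are from RefSeq (GRCh38.p14), searched with Python 3.11.15. The alternatives were other background correction, scaling, filters, probe rules, array weights, a covariate, a replicate block and leaving out each array.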

Additional observations from a re-analysis of the deposited data

Results flagged for a closer look

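The response to Dox differed between 22Rv1 and LNCaP for 2572 genes by the interaction term of the limma model, with 3 arrays per group. The differences below are the log2 change in 22Rv1 minus that in LNCaP. ALB differed by -5.32 (adjusted p = 4.31e-12), AKR1C2 by -4.87, CDH2 by -4.13, TMEFF2 by -3.78 and AGR2 by -3.75. In these 5 genes all 3 arrays labelled Dox lay below all 3 without Dox in 22Rv1. ITGA5 differed by 3.77 (adjusted p = 3.81e-09), CMKLR2 by 3.22, BASP1 by 3.19, ERBB2 by 3.14 and BHLHE40 by 3.13. In these 5 all 3 arrays labelled Dox lay above all 3 without. The changes in LNCaP itself were -0.24 for ALB, -0.14 for AKR1C2, -0.06 for CDH2, 0.17 for TMEFF2 and 1.37 for AGR2, and -0.57 for ITGA5, -0.70 for CMKLR2, 0.23 for BASP1, -0.39 for ERBB2 and -1.59 for BHLHE40. LGALS4 rose in LNCaP and not in 22Rv1 by the same probe. LNCaP levels of the genes that fell in 22Rv1 are not given here, and a gene near background in LNCaP could not fall there. The part of the construct in these differences was not tested.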

How the results depend on the processing

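The count of 3394 called genes was 2810 to 4297 under the alternatives other than array weights, and 2468 to 4246 when 1 array was left out. Array weights raised it to 5637 and raised the difference from LNCaP from 2572 to 4114 genes. That difference gave 1961 to 3171 genes when 1 array was left out. The change of LGALS4 lay between -0.14 and 0.02 in those fits and was not called under any alternative. Of 215 named and called genes, 186 kept call and direction under every alternative, 29 lost the call under at least 1 and 0 reversed. Of 44 named genes not called, 14 gained a call under at least 1 alternative. Same-numbered arrays of both groups deviated together no more than others (r = -0.025, 0.063 and -0.028, against -0.072 to 0.088 for different numbers). With 3 arrays per group this cannot settle whether the numbers pair them. A replicate block gave 3080 called genes and 2222 for the difference. With 3 arrays in each group, the more variable Dox group and the less variable group without Dox share 1 estimate of the spread. The fit of the 6 arrays alone gave 2810 called genes.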
